A study of Mus musculus with 4 samples.

Results

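The lysosomal genes described here are 42 genes for hydrolases, their cofactors, lysosomal membrane proteins and the transcription factor Tfeb, measured in immortalized mouse fibroblasts under oxidative stress. The members came from a fixed list of names. Ppt2, Ctsw and Chid1 were chosen by their measured differences between miR-141 and the controls, so those values describe the choice and support nothing. Of the 42 genes, 41 had a named probe among the 17711 genes with one. Signals with a detection p-value under 0.01 were taken as detected, and 33 members reached this in at least 1 library, of 7734 genes in all. In all 4 libraries 30 members were detected. A member that passed through a single bright library had to differ there, which applied to Cln3 alone.

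The study compared 4 cultures on Illumina bead arrays, 1 library per group. The groups were cells given the transfection reagent without miRNA (transfectant only), cells given a control miRNA, cells given miR-141 and cells given miR-200c. Transfection lasted 48 h, and all cultures, controls included, were exposed to hydrogen peroxide (400 µM) over the final 2 h. The labels name the cells only as immortalized fibroblasts, without a line or the number of cultures, and leave the miRNA arm unstated. The transfection field of the first group reads none, while its description names the transfectant.

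Lysosomes are acidic organelles in which hydrolases break down proteins, lipids and glycans delivered by endocytosis and autophagy. Most soluble enzymes reach them through mannose 6-phosphate receptors, and membrane proteins protect the limiting membrane or carry breakdown products out. TFEB, a basic helix-loop-helix factor, binds E-box elements in the promoters of many of these genes. In fibroblasts the lysosome also degrades endocytosed matrix, and defects of many of these genes cause storage diseases.

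The transfected miRNAs belong to the miR-200 family, and their mature sequences are shown because the seed is the part that pairs with target transcripts. Both arms are given. Capitals mark the seed, bases 2 to 8 from the 5′ end. The sequences are RefSeq's, of build GRCm38.p6, from the minus strand of chromosome 6 (chr6:124717917-124717938 and chr6:124718324-124718346 for the 3p arms).
mmu-miR-141-3p: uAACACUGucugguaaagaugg
mmu-miR-200c-3p: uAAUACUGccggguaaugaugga
mmu-miR-141-5p: cAUCUUCCagugcaguguugga
mmu-miR-200c-5p: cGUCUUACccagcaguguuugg
The 3p seeds differ by 1 substitution, C4U from miR-141 to miR-200c, counted from the 5′ end of the miRNA. The miR-141-3p seed is shared with miR-200a-3p.

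Raw signals had medians of 42.8 to 49.5 and means of 151 to 246 over the 4 arrays, and 31 or 32 members were detected in each. Summed raw signals of marker genes, given below, are not scaled for this difference in brightness. All levels are log2 signals after background correction and quantile normalization. With a single library per group no difference has a replicate check, and no p-value is given. Precision is limited by the number of arrays. The rule for a call was a difference of at least 1.5-fold from both controls, in the same direction, with detection in the miRNA library or in both controls. The miRNA comparisons share both control libraries. Among fibroblast markers, 7 of 13 were detected, including Col1a1, Vim and Fn1, while Col1a2, Col3a1, Pdgfra, Thy1, Lum and Postn were below detection in every library. In bulk cultures, fewer cells of a type and less RNA per cell cannot be told apart.

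With miR-141, 4 members passed the 1.5-fold rule, 3 lower and 1 higher. Ppt2, Chid1 and Lipa, the lysosomal acid lipase gene, were lower, and the cathepsin gene Ctsw was higher. These were 4 of 32 members considered (12.5%), where 5.54% of all 7187 genes considered passed. Of the 29 considered members that had not been picked for their pattern, Lipa alone passed, a share of 3.45%, which is not above the background. In each direction the background was 2.38% higher and 3.16% lower. With miR-200c, 4 of 32 members passed, with Npc1 and Scarb2 lower and Ctsw and Gm2a higher. This share of 12.5% stood beside a background of 8.64% of 7200 genes, of which 4.08% were higher and 4.56% lower. Without the picked genes it was 3 of 29, or 10.3%, near the background.

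Fibroblast markers differed in the same libraries. Of the 13 on the array, 7 were detected. Of these 7, 0 were higher and 2 lower with miR-141, and 1 was higher and 4 lower with miR-200c. Over all genes considered, 2.38% were higher and 3.16% lower with miR-141, and 4.08% and 4.56% with miR-200c. S100a4, a calcium-binding protein gene, had log2 signals of 9.69 in transfectant only, 9.35 in control miRNA, 8.42 with miR-141 and 7.99 for miR-200c. Pdgfrb, a growth factor receptor gene, was detected in both controls and with neither miRNA, at least 2.27-fold below control miRNA for miR-141 and at least 2.25-fold for miR-200c. The collagen gene Col1a1 was lower with miR-200c, by -1.09 from control miRNA and -0.69 from transfectant only, and Fbln2, a matrix protein gene, by -0.60 and -1.07. Dcn, which encodes the proteoglycan decorin, was higher with miR-200c, at 2.15 and 1.37. The summed raw signal of the 13 markers was 21887, 13907, 15938 and 12921 in the order transfectant only, control miRNA, miR-141 and miR-200c. These sums are not scaled between arrays, whose mean raw signals over all probes were 246, 151, 198 and 190 in that order. The part of the marker differences in the members' values was not tested.

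**Figure D1:**
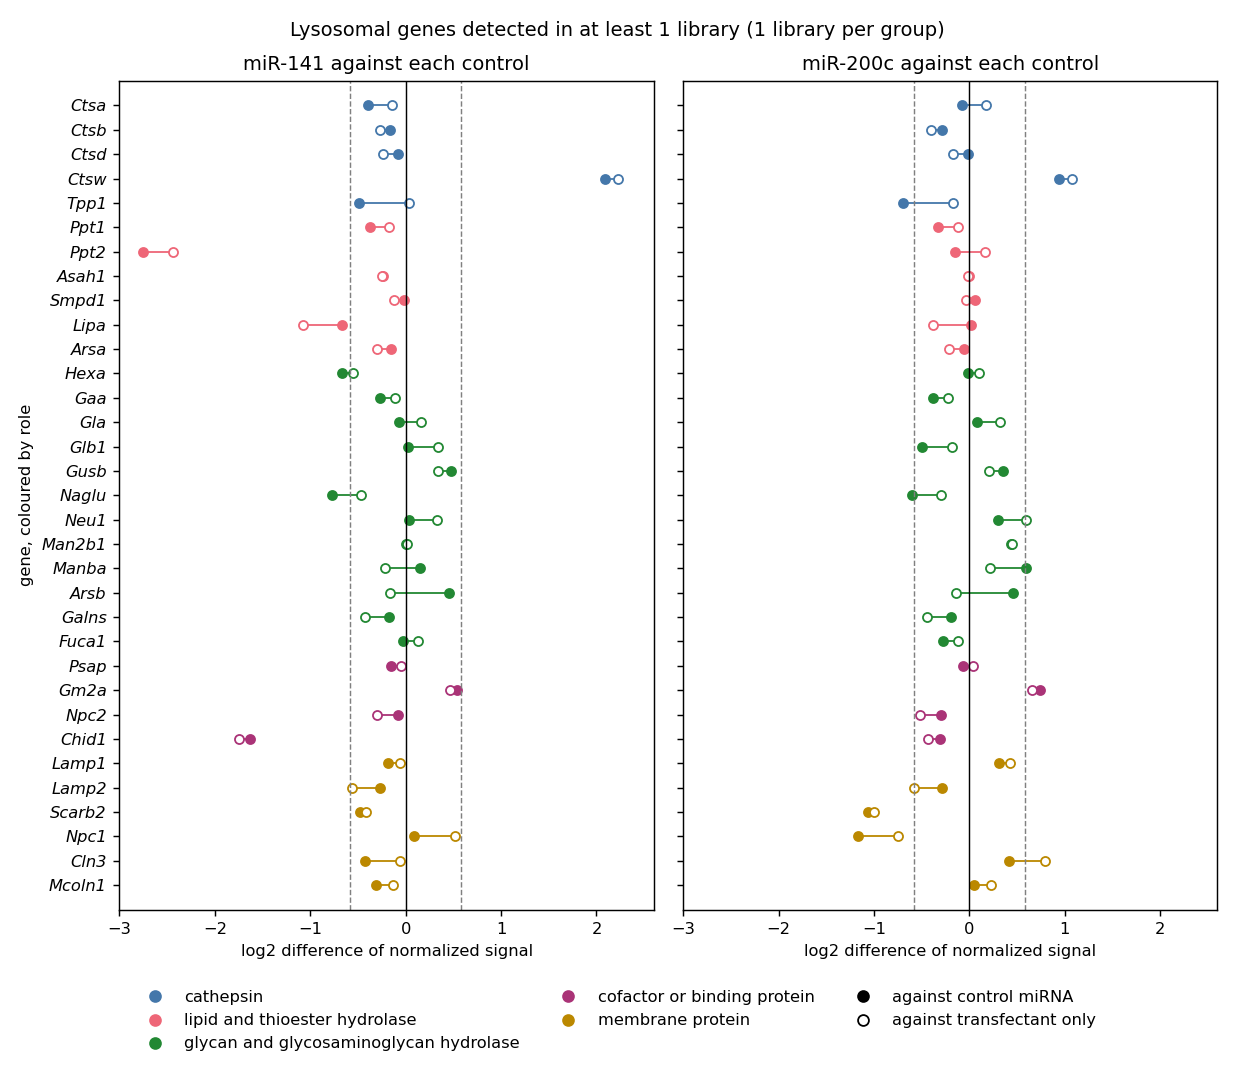
Log2 difference of normalized signal for the 33 detected lysosomal genes (rows, coloured by role), with miR-141 on the left and miR-200c on the right. Filled points are against control miRNA and open points against transfectant only, 1 library per group, and dashed lines mark 1.5-fold. Both points of Ppt2, Chid1, Lipa and Ctsw lie beyond a dashed line with miR-141, and those of Npc1, Scarb2, Gm2a and Ctsw with miR-200c.

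Most members lay close to the controls. The median log2 difference of the 33 detected members with miR-141 was -0.16 against control miRNA and -0.14 against transfectant only, beside 0.01 and 0.02 over all detected genes. Against control miRNA 24 of the 33 were below 0, beside 3756 of all 7734 detected genes. Of the 30 detected members that were not picked, 22 were below 0. The controls themselves differed by a median of 0.11 for the members, control miRNA being the higher, and by 0.00 over all genes. Without the 3 picked genes the medians with miR-141 were -0.16 and -0.14. For miR-200c the median was -0.06 against control miRNA and -0.12 against transfectant only, beside -0.00 and 0.01 over all genes. The standard deviation of the 33 members' log2 differences between the controls was 0.26, beside 0.34 over all detected genes. For the 30 detected members that were not picked it was 0.27 between the controls. Against control miRNA, that of these 30 was 0.32 with miR-141 and 0.45 with miR-200c, beside 0.37 and 0.45 over all detected genes.

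Cathepsins are proteases of the lysosome, and the peptidase gene Tpp1, which is not a cathepsin, was grouped with them. Of the 9 genes in this group 5 were detected, namely Ctsa, Ctsb, Ctsd, Ctsw and Tpp1. Ctsk, Ctsl, Ctss and Ctsz were below detection in every library. Ctsw, a cathepsin known from cytotoxic lymphocytes, had log2 signals of 6.02 in transfectant only, 6.16 in control miRNA, 8.25 with miR-141 and 7.10 for miR-200c. Both miRNA libraries stood above both controls, and the controls lay close to each other. The difference against control miRNA was 2.09 for miR-141 and 0.94 for miR-200c. Against transfectant only it was 2.23 and 1.08. The array had a single Ctsw probe. Of 11 cytotoxic lymphocyte markers on the array, 10 were below detection in every library, Prf1, Gzmb, Nkg7, Cd3e and Ptprc among them. The exception, Cd8b1, was at 9.68, 9.70, 9.69 and 10.02 in the same order, and the summed raw signal of the 11 markers was 1598, 959, 1258 and 1431.

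The other detected genes of this group were measured in all 4 libraries and did not pass. Ctsb, a cysteine protease whose probe was among the 5 brightest of the members, had log2 signals of 10.75, 10.65, 10.48 and 10.36 in the order transfectant only, control miRNA, miR-141 and miR-200c. Ctsd, the main aspartic protease, was at 9.68, 9.52, 9.44 and 9.51. These libraries spanned less than 1.5-fold. Tpp1, a tripeptidyl peptidase, was at 6.32, 6.84, 6.35 and 6.14. Control miRNA was the highest of these, so that the difference with miR-200c was -0.70 against control miRNA and -0.17 against transfectant only. Ctsa, the protective protein of the sialidase complex, was at -0.39 and -0.14 with miR-141.

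Among the lipid and thioester hydrolases, 6 of 7 were detected. All 6 were below control miRNA with miR-141, by -0.02 for Smpd1 to -2.75 for Ppt2, which was picked for this difference. Of all 7734 detected genes 3756 were below it, and 6 genes are too few to read this as a shift of the group. Ppt2 encodes a thioesterase that removes fatty acyl groups from coenzyme A. Its probe ILMN_2775331 gave raw signals of 579.9 in transfectant only, 350.7 in control miRNA, 98.4 with miR-141 and 456.4 with miR-200c, which normalized to log2 8.63, 8.94, 6.19 and 8.79. The miR-141 library alone was low, and miR-200c lay between the controls. The log2 difference with miR-141 was -2.75 against control miRNA and -2.44 against transfectant only. With miR-200c the values were -0.15 and 0.16. The second Ppt2 probe was below detection in every library and gave no second reading. Ppt1, the related thioesterase that removes palmitate from proteins, was at 6.33, 6.54, 6.16 and 6.21 and did not pass.

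Lipa hydrolyses cholesteryl esters and triglycerides taken up with lipoproteins. Its log2 signals were 7.32, 6.92, 6.25 and 6.94 in the order transfectant only, control miRNA, miR-141 and miR-200c. The miR-141 library was the lowest, and the difference was -0.67 against control miRNA and -1.08 against transfectant only, while the controls differed by -0.40. The call was lost without background correction, with median scaling, with the authors' processed values and with an offset of 50. Asah1, the acid ceramidase gene, was steady by comparison on its brightest probe, at 11.69, 11.68, 11.44 and 11.67. Another Asah1 probe detected in all 4 libraries varied more, at 6.96, 7.50, 6.97 and 7.18, with control miRNA the highest. Arsa, the sulfatide sulfatase gene, and Smpd1, the acid sphingomyelinase gene, did not pass and were detected in all 4 libraries. Galc, which encodes the galactosylceramidase, was below detection throughout.

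The enzymes that cut glycans and glycosaminoglycans made up 15 members. Of these 14 had a named probe, 12 were detected and 0 passed the rule with either miRNA. Their median against control miRNA was -0.02 for miR-141 and 0.03 for miR-200c. Hexa, the alpha subunit of beta-hexosaminidase, was at 7.95, 8.07, 7.40 and 8.05, with the miR-141 library the lowest. Its difference with miR-141 was -0.67 against control miRNA and -0.55 against transfectant only, just short of the 1.5-fold size in the latter. Naglu, which degrades heparan sulfate, was at 6.74, 7.04, 6.27 and 6.44, and both miRNA libraries were the lowest. Its differences were -0.77 and -0.47 with miR-141, and -0.60 and -0.30 with miR-200c, so neither passed against transfectant only.

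Other members of this group stood higher with miR-200c without passing against both controls. Neu1, the lysosomal sialidase gene, was at 0.30 and 0.59 against control miRNA and transfectant only. In the same order Man2b1, an alpha-mannosidase gene, was at 0.44 and 0.45, and Manba, the beta-mannosidase gene, at 0.59 and 0.22. Another probe detected in all 4 libraries was at 0.36 and 0.74 for Neu1, but at -0.16 and 0.60 for Man2b1. Arsb, the arylsulfatase that removes sulfate from dermatan and chondroitin sulfate, was at 8.24, 7.64, 8.09 and 8.10. Here control miRNA was the single low library. Arsb was the only member of 32 past 1.5-fold between the controls, at -0.60 (3.12%), where 7.7% of 7511 genes passed, 3.14% higher and 4.55% lower in control miRNA. Galns was detected in both controls and with neither miRNA, at least 1.12-fold lower with miR-141 and at least 1.11-fold lower with miR-200c than in control miRNA. Gusb, the beta-glucuronidase gene, was at 0.48 and 0.34 with miR-141 on its brightest probe. Another Gusb probe detected in all 4 libraries was at -0.04 and 0.21. A dimmer Gusb probe was detected with miR-141 only, at least 1.21-fold above control miRNA. Gaa, Gla and Glb1, which cut glycogen, alpha-galactosides and beta-galactosides, were detected in all 4 libraries and did not pass. Fuca1, a fucosidase gene, was detected in control miRNA and with miR-141 only. Sgsh and Idua were below detection, and Ids was the member without a named probe.

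Cofactors and binding proteins present lipids to the enzymes or carry them. Gm2a encodes the activator that lifts GM2 ganglioside out of the membrane for beta-hexosaminidase. Its log2 signals were 8.12, 8.04, 8.58 and 8.78 in the order transfectant only, control miRNA, miR-141 and miR-200c. Both miRNA libraries were above both controls, which lay within 0.08 of each other. With miR-200c the difference was 0.74 against control miRNA and 0.66 against transfectant only, and with miR-141 it was 0.54 and 0.46, short of the rule. The miR-200c call was lost under median scaling, without background correction and on the authors' processed values. Psap, the precursor of the saposins, was at 11.39, 11.49, 11.34 and 11.43 and hardly varied.

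Chid1 encodes a secreted and lysosomal protein with a chitinase-like domain. Its brightest probe, ILMN_2490548, was at 8.92, 8.80, 7.17 and 8.49, with the miR-141 library low and the others within 0.43. The difference with miR-141 was -1.63 against control miRNA and -1.75 against transfectant only, and with miR-200c it was -0.31 and -0.43. The array carried 3 further Chid1 probes, of which 2 were detected in at least 1 library. One of these, detected in all 4 libraries, differed from control miRNA by -0.16 and from transfectant only by 0.31 with miR-141, and so did not lie below both controls. The other was below detection with miR-141 and in control miRNA, so its position against control miRNA cannot be read, and it was at least 1.07-fold lower than in transfectant only. With the mean of the detected probes in place of the brightest one, 3 members passed with miR-141.

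**Figure D2:**
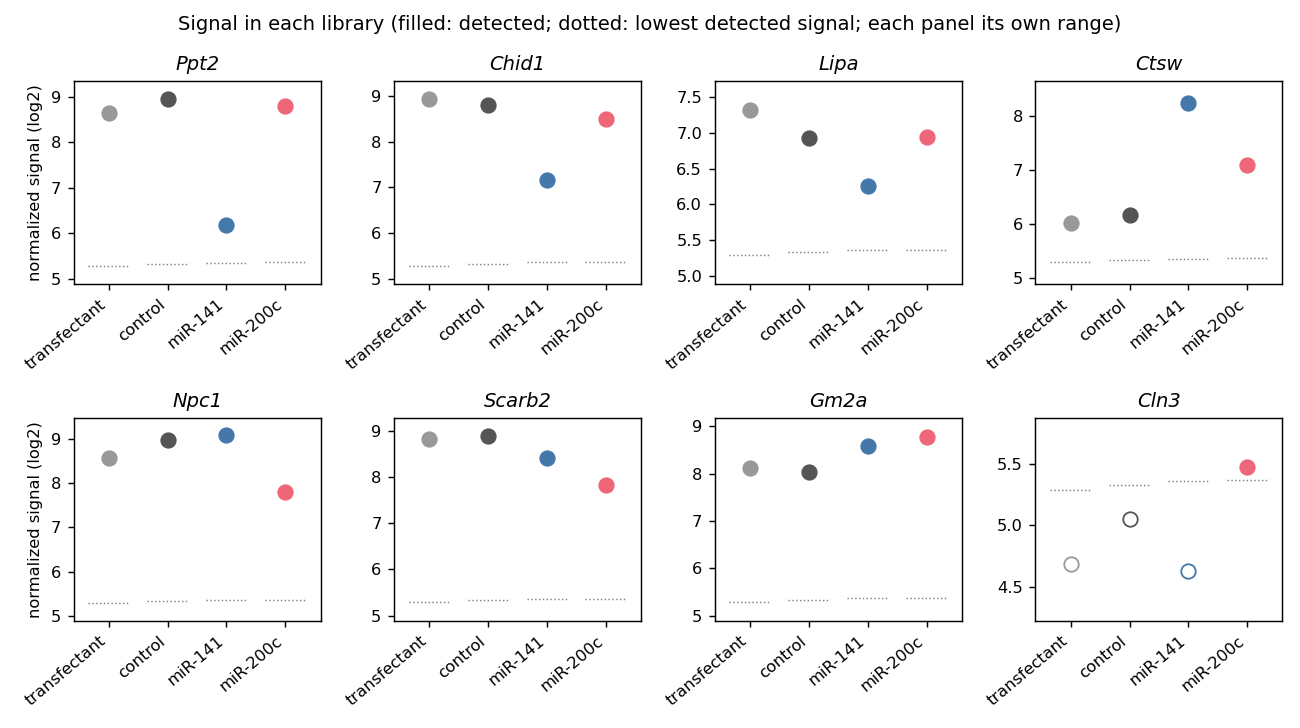
Normalized log2 signal of 8 lysosomal genes in each of the 4 libraries, 1 point per library and each panel with its own range. Filled points were detected, open points were not, and dotted lines show the lowest detected signal of each array. The miR-141 point is the low one for Ppt2, Chid1 and Lipa and the high one for Ctsw, while the miR-200c point is the low one for Npc1 and Scarb2.

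All 6 membrane proteins were detected. Npc1 carries cholesterol out of the lysosome, together with the soluble Npc2. Its brightest probe was at 8.56 in transfectant only, 8.98 in control miRNA, 9.08 with miR-141 and 7.81 for miR-200c. The miR-200c library was the low one, by -1.17 against control miRNA and -0.75 against transfectant only, while miR-141 was at 0.09 and 0.52. The array had 6 further Npc1 probes, and 2 of them were detected. One was at 5.91, 6.12 and 5.69 and below detection with miR-200c, at least 1.68-fold lower than in control miRNA and at least 1.46-fold lower than in transfectant only. The other ran the opposite way, at 6.89, 6.66, 6.81 and 7.08 in the same order. Npc2 was at 8.90, 8.68, 8.60 and 8.38 and did not pass.

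Scarb2 encodes the receptor that delivers glucocerebrosidase to lysosomes. Its log2 signals were 8.82, 8.88, 8.40 and 7.82. The controls lay within 0.06 of each other and both miRNA libraries were below them. The difference with miR-200c was -1.06 against control miRNA and -1.0 against transfectant only, and with miR-141 it was -0.48 and -0.42, short of the rule. The miR-200c call was lost under median scaling, and the array had 1 Scarb2 probe.

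Lamp1 and Lamp2 encode the most abundant glycoproteins of the lysosomal membrane. Lamp1 was at 11.50, 11.63, 11.45 and 11.93, highest with miR-200c, at 0.31 and 0.43 above the controls. Lamp2 was at 11.58, 11.28, 11.02 and 10.99, with transfectant only the highest. Of 3 other detected Lamp2 probes, one was past 1.5-fold from both controls with miR-200c and in the opposite direction, at 6.05, 5.71, 5.62 and 6.78, a difference of 1.07 and 0.73. Mcoln1, a calcium channel of the lysosomal membrane, was at 6.74, 6.92, 6.61 and 6.98. Cln3, whose loss causes juvenile neuronal ceroid lipofuscinosis in humans, was detected with miR-200c only, at least 1.10-fold above control miRNA and at least 1.14-fold above transfectant only.

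**Figure D3:**
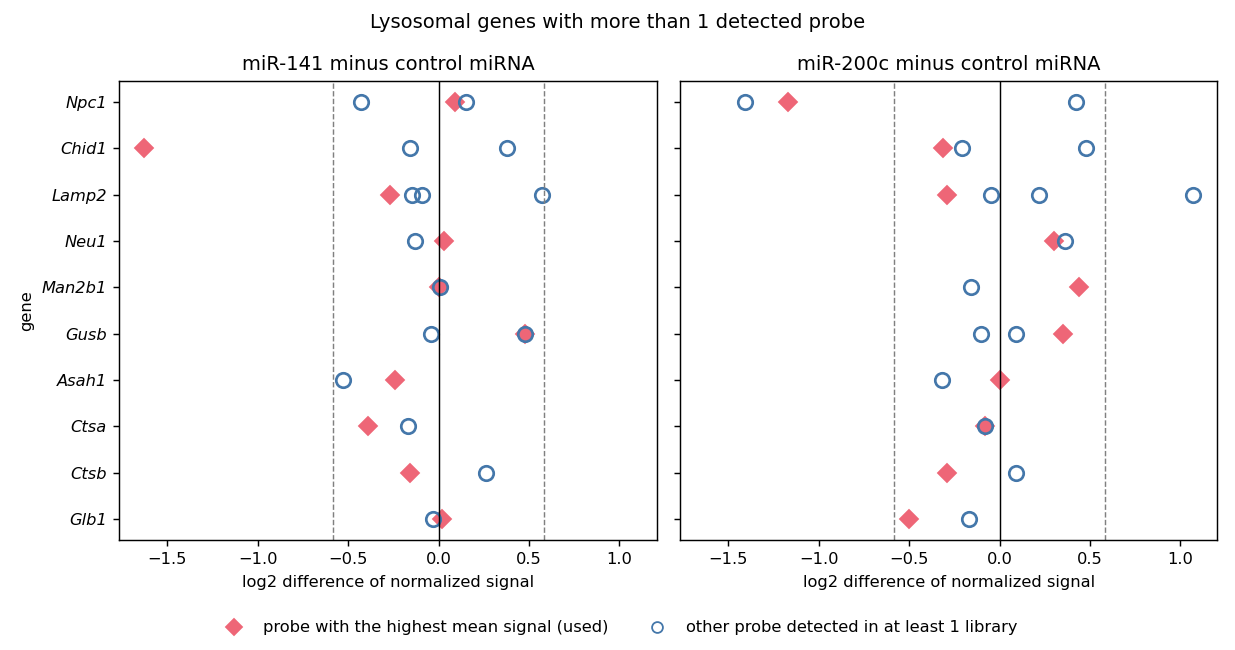
Log2 difference against control miRNA for every detected probe of the 10 lysosomal genes with more than 1 detected probe, with miR-141 on the left and miR-200c on the right. Diamonds are the probes used, circles the other probes, and dashed lines mark 1.5-fold. The Chid1 diamond at -1.63 lies below the circle at -0.16 with miR-141, while the Chid1 circle at 0.38 compares values below detection, and the Npc1 and Lamp2 probes lie on both sides of 0 with miR-200c.

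The miRNAs were also set against each other, which uses neither control. Of 32 members considered, 7 differed by at least 1.5-fold (21.9%), where 8.55% of 7283 genes did. Without the picked genes these were 4 of 29, or 13.8%. One of the 4, Cln3, was detected with miR-200c alone and so entered through the library where it was high. Without Cln3 the count was 3 of 28, or 10.7%, near the background. With undetected values set at the lowest detected signal of their array, 6 of 32 members passed, beside 7.36% of all genes, and 3 of 29 (10.3%) without the picked genes. On the lower side with miR-141 were Ppt2 at -2.60, Chid1 at -1.32, Lipa at -0.70 and Hexa at -0.65, together with Cln3, for which miR-141 was below detection and the data bound the difference only at 1.08-fold or more, short of the 1.5-fold size. On the higher side were Npc1 at 1.27 and Ctsw at 1.15. Over all genes 4.01% passed on the higher side and 4.54% on the lower. Scarb2, at 0.57, lay just short of the 1.5-fold size. The choice of Ppt2, Ctsw and Chid1 by their miR-141 values bears on this comparison as well. Without background correction, with the authors' processed values or with an offset of 50, 4 members passed. These were Ctsw, Ppt2, Chid1 and Npc1.

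**Figure D4:**
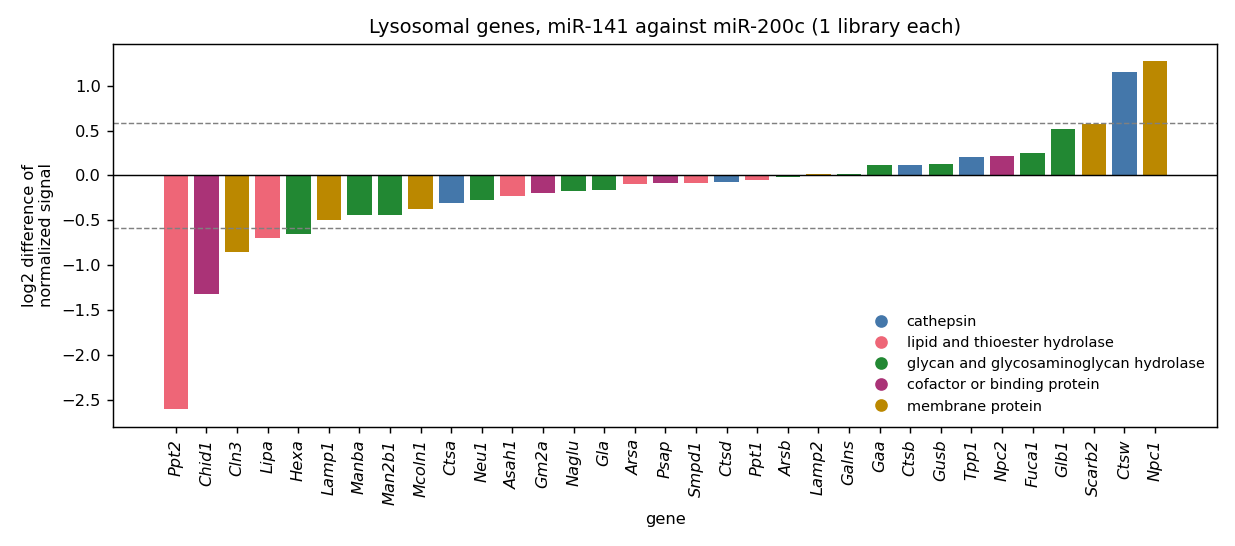
Log2 difference of miR-141 minus miR-200c for the 33 detected lysosomal genes, ordered by size and coloured by role, 1 library each. Dashed lines mark 1.5-fold. Ppt2 at -2.60 and Chid1 at -1.32 are the lowest bars and Npc1 at 1.27 and Ctsw at 1.15 the highest.

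The genes next to the picked members were read for the same libraries, named from the RefSeq gene table of GRCm38.p6. Beside Ppt2, Agpat1 was at 0.31 and 0.52 with miR-141 against control miRNA and transfectant only, and Fkbpl at -0.07 and -0.02, while Egfl8 and Prrt1 were below detection. Next to Ctsw, Fibp was at 0.30 and 0.73, Cfl1 at -0.13 and -0.11 and Ccdc85b at 0.06 and 0.27, with Mus81 below detection. Next to Chid1, Cd151 was at -0.14 and -0.23 and Ap2a2 at 0.10 and 0.18, and Cracr2b and Gm16982 were below detection. Of the 12 neighbours 7 could be called, and 0 of these passed the rule with miR-141. With 5.54% passing over all genes considered, 7 genes are too few to read this as a difference.

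Tfeb itself was below detection in every library. The E-box that TFEB binds was searched in the RefSeq promoters, 300 bases from 250 before to 50 after each gene's start, which the table held for 37 of the 42 members. The core CACGTG is its own reverse complement, so both strands read the same. It was present for 12 of the 37 members (32.4%) and for 8.09% of 27025 genes. The longer TCACGTGA, which contains the core, was present for 5 members (13.5%), namely Ctsa, Ctsd, Gla, Cln3 and Mcoln1, and for 1.12% of all genes. A match is a description of the letters and not a bound site.

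The promoters of Cln3, Ctsd and Mcoln1 are shown because they hold TCACGTGA. That of Scarb2 is shown because Scarb2 passed the rule with miR-200c and its window holds no CACGTG. Each is given on the strand of its gene, and capitals mark every CACGTG. They lie at chr7:126583187-126583486 (minus strand), chr7:142387778-142388077 (minus strand), chr8:3500269-3500568 (plus strand) and chr5:92505608-92505907 (minus strand) of GRCm38.p6.
Cln3: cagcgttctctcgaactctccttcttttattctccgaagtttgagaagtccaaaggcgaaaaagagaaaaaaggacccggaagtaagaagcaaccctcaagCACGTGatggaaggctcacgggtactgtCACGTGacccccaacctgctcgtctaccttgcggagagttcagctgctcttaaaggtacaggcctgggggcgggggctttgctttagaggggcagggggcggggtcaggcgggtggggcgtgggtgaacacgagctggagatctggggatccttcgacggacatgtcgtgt
Ctsd: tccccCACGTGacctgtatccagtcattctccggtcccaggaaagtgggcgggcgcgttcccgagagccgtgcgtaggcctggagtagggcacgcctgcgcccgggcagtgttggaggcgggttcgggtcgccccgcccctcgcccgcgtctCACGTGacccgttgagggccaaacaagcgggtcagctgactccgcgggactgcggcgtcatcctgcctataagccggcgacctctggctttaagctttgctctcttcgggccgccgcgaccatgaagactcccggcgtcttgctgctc
Mcoln1: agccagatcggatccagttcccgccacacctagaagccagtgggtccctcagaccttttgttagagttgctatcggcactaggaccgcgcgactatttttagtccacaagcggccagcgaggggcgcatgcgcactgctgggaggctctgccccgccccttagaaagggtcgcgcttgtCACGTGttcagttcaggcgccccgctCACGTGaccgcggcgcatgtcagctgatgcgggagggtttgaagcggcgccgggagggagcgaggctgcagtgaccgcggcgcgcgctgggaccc
Scarb2: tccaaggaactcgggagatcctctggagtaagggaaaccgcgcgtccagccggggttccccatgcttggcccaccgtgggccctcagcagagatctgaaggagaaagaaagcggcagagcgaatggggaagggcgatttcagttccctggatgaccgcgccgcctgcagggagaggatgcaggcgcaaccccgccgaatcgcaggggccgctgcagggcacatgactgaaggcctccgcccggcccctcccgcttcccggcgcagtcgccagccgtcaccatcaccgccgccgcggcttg

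Of the detected members with a promoter in the table, 10 held the core element and 18 did not. The 10 with it ranged from -0.77 for Naglu to 0.02 for Glb1 with miR-141 against control miRNA, with a median of -0.22, and the 18 without it from -2.75 for Ppt2 to 0.54 for Gm2a, with a median of -0.12. With miR-200c the medians were -0.03 and -0.05. None of the members with the element passed the rule with either miRNA. Over all genes considered, 5.54% passed with miR-141 and 8.64% with miR-200c, so 10 detected members are too few to read this as a difference. Of the 7 members that did pass, the table held a promoter for Ppt2, Chid1, Lipa, Scarb2 and Gm2a, and none for Ctsw and Npc1.

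Other genes of the pathway were counted in the same way. Among 15 detected lysosomal hydrolases and activators outside the list, 1 was higher and 1 lower with miR-141, and 2 were higher and 0 lower with miR-200c. Over all genes considered, 2.38% were higher and 3.16% lower with miR-141, and 4.08% and 4.56% with miR-200c, and the count of each list is to be read beside these shares. Ctsc, the cathepsin that activates granule serine proteases, had log2 signals of 7.62, 7.93, 6.96 and 8.10, low with miR-141 alone, by -0.97 from control miRNA and -0.66 from transfectant only. Ctsh, an aminopeptidase cathepsin, was below detection in both controls and stood above control miRNA by at least 1.05-fold with miR-141 and at least 1.37-fold with miR-200c. It entered the counts through the libraries where it was high, and neither bound reaches 1.5-fold, so the single higher call with miR-141 and 1 of the 2 with miR-200c rest on undetected controls. Dnase2a, the acid DNase gene, was at 0.87 and 1.27 with miR-200c. This list also held Gnpat, which encodes a peroxisomal enzyme.

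Of 20 other detected lysosomal membrane proteins and 16 detected subunits of the vacuolar ATPase, the proton pump of the lysosome, 0 passed with either miRNA. The ATPase median was -0.21 for miR-141 and -0.03 for miR-200c against control miRNA. Among 32 detected genes for the sorting of lysosomal enzymes, 1 was lower with miR-141 and 2 with miR-200c. These were the adaptor subunit genes Ap1m1, at -0.59 against both controls, Ap1s2, below detection with miR-200c and at least 1.62-fold lower than the controls, and Ap3s1, at -0.60 and -1.04. Among 25 detected autophagy genes Wipi1, a phosphoinositide-binding autophagy protein gene, was lower with both, at -1.13 and -0.61 for miR-141 and -1.22 and -0.70 for miR-200c. Atg10 was lower with miR-200c, at -0.99 and -0.89.

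The TFEB family and mTORC1 list had 19 detected genes. Mitf, a relative of Tfeb, was the single one that passed, with log2 signals of 5.97 in transfectant only, 6.15 in control miRNA and 5.83 with miR-200c. It was below detection with miR-141, at least 1.72-fold lower than control miRNA and at least 1.53-fold lower than transfectant only. Of the 3 detected cathepsin inhibitors, Cst3, Cstb and Serpinb6a, 0 passed.

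**Figure D5:**
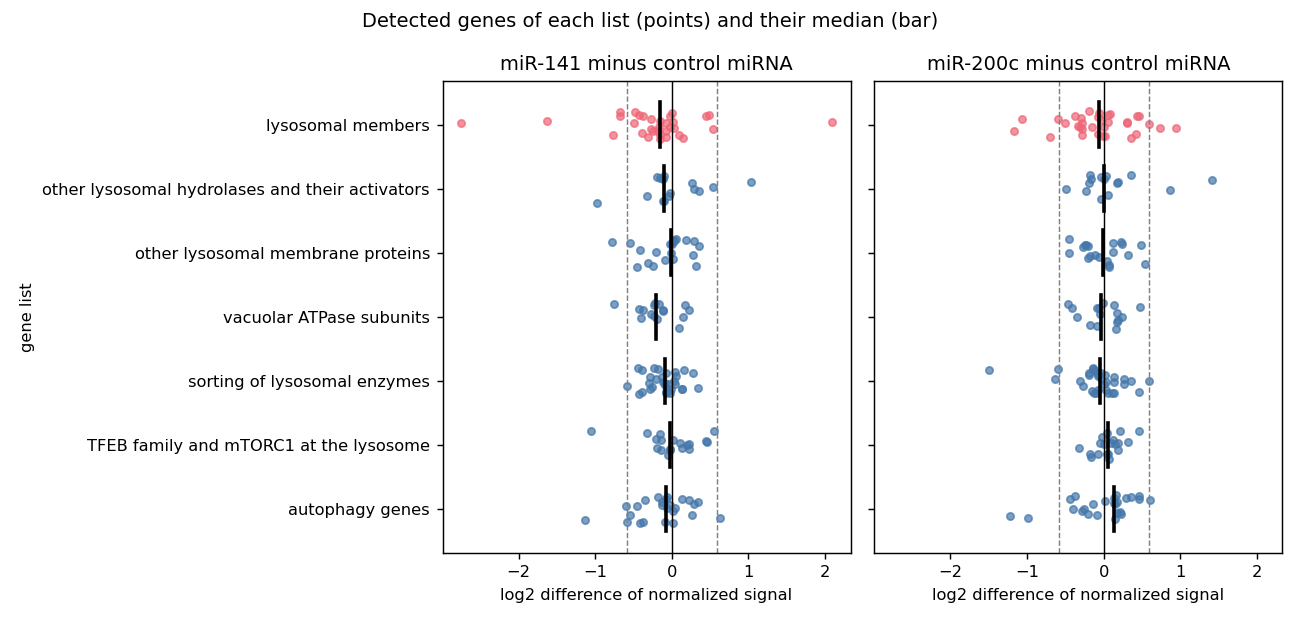
Log2 difference against control miRNA of the detected lysosomal members and of 6 related gene lists, with miR-141 on the left and miR-200c on the right. Points are genes, bars are medians and dashed lines mark 1.5-fold. The medians shown lie between -0.21 and 0.14, and the outermost points with miR-141 are Ppt2 and Ctsw, members chosen by these values.

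Markers of other cells that make lysosomal proteases in quantity were mostly below detection. This does not show absence, because several fibroblast markers were below detection in these fibroblasts too. Of 10 macrophage markers on the array 9 were below detection in every library, Ptprc, Adgre1 and Lyz2 among them, and the summed raw signal was 571, 462, 590 and 588 in the order transfectant only, control miRNA, miR-141 and miR-200c. The exception, Cd14, was at 6.53, 6.89, 7.48 and 7.68 and passed with both miRNAs. Of 9 osteoclast markers 7 were below detection, Acp5 and Calcr among them, and the summed raw signal was 596, 453, 536 and 483. Nfatc1 was detected in all 4 libraries, at 6.60, 6.54, 6.92 and 6.51 in the same order. Mmp9 was detected in the transfectant only library alone, at 5.52, and neither gene passed.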

How the data were processed

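Average bead signal intensity per probe, not scaled between arrays, was deposited for 46632 probes and 4 libraries, per the file headers. A detection p-value beside each signal was deposited too. The submitters' processing notes name GenomeStudio without a version. The authors' processed intensity values were each a straight line of the raw signals of that array, to within 0.0113 units, and their making is not stated.

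The neqc function estimated the background from the detection p-values, added an offset of 16, quantile-normalized the arrays and took log2 (limma 3.58.1, R 4.3.3). Quantile normalization removes a shift shared by most genes. Probes were named from the platform annotation (29976 with 1 symbol, 10 with several, 16646 with none), and 29921 were found by Entrez identifier in RefSeq GRCm38.p6. Per gene, the probe with the highest mean raw signal was used. Undetected values gave bounds from the lowest detected log2 signal of each array, 5.29 to 5.37. The calling rule was tested on simulated data. Members, lists and rules were chosen with earlier results of these data known. The text names every called member, the 5 brightest, neighbours of the picked members, up to 4 passing genes per pathway list and the fibroblast markers that passed with either miRNA. Value columns without a library numbered 0. Counts used pandas 2.3.3 and numpy 2.4.6 under Python 3.11.15, and figures matplotlib 3.10.9. The alternatives were 10 other settings and 1 added after seeing the data.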

Additional observations from a re-analysis of the deposited data

How the results depend on the processing

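Each count and median was recomputed under 10 other settings and 1 added after seeing the data. Of 66 values, 53 stayed within 1.5 times the reported count or moved a median by less than the members' SD between the controls. That SD, 0.26, was larger in size than the medians against control miRNA, -0.16 with miR-141 and -0.06 with miR-200c. A median could therefore vanish or change sign and still be counted among the 53. Median scaling over all probes put the median of all detected genes with miR-141 at 0.38 from control miRNA and at -0.35 from transfectant only, and with miR-200c at 0.37 and -0.36. The members' medians were then 0.21 with miR-141 and 0.36 with miR-200c against control miRNA, and of opposite sign against transfectant only, at -0.56 and -0.42. Relative to all genes, those against control miRNA were -0.17 and -0.01, beside -0.17 and -0.06 as reported. Under that scaling 2 members passed with miR-200c, and 24 differed between the controls, where 5338 of all genes did. Scaled over genes detected in all 4 libraries, the setting added later, 3 differed between the controls. Between the controls 0 members passed, in place of 1, without background correction, with the authors' processed values and with an offset of 50. Between the miRNAs 4 passed under each of these, in place of 7, and 4 without Ppt2, Ctsw and Chid1. Leaving these out left 1 member with miR-141. The causes were not tested beyond what each setting changes. Over all genes, the count with miR-141 was 195 without background correction, 186 with median scaling, 192 with the authors' values and 217 with the larger offset, in place of 398, and with miR-200c it was 355, 312, 350 and 383, in place of 622. Between the miRNAs it was 289, 312 and 322 without background correction, with the authors' values and with the larger offset, in place of 623. Between the controls it was 122, 172 and 152 under these, and 868 with the setting added later, in place of 578. Of 127 values for single called members 107 kept their call and 0 reversed. A detection p under 0.05, the limit to genes detected in all 4 libraries and the probe choice by normalized mean left these signals unchanged. Normalized mean chose another probe for 0 members. Calls could not be lost under these, which are among the 8 settings run for single genes, so values kept there are no check. Calls were lost for Lipa, Gm2a, Hexa, Cln3 and Arsb without background correction and with the authors' values, and Scarb2 lost its call under median scaling. Ppt2, Ctsw, Chid1 and Npc1 kept theirs in the 8 settings run for single genes, with -2.75 to -2.18 for Ppt2 and -1.63 to -1.18 for Chid1 with miR-141, 1.58 to 2.41 for Ctsw with miR-141 and -1.17 to -0.70 for Npc1 with miR-200c. With the mean of detected probes, 3 members passed with miR-141, without Chid1. Dim probes near background limit what can be measured. No paired analysis was possible because each group holds 1 library.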
